A study of Caenorhabditis elegans with 2 samples.

Results

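Transfer RNA (tRNA) genes are short genes for the adaptors that bring amino acids to the ribosome. Their loci were described here by the binding of MEP-1, a zinc-finger protein that acts with the chromatin remodeller LET-418 and the histone deacetylase HDA-1. The data are ChIP-seq (sequencing of immunoprecipitated chromatin) of eGFP-tagged MEP-1 from whole Caenorhabditis elegans embryos of mixed stage and mixed sex, with 2 biological replicates of 1 condition. Both replicates came from strain OP70, which carries the mutation unc-119(ed3) on chromosome III and the insertion wgIs70, a mep-1 transgene. The labels do not say which promoter drives the transgene, and peaks from whole embryos cannot be assigned to a cell type. The members were all 612 nuclear genes that the Ensembl annotation of WBcel235 (ce11) calls tRNA, of 46890 nuclear genes in all. Each locus ran from 500 bp upstream of the gene to its 3′ end. The genes were 64 to 122 bp long with a median of 72 bp, and the median locus was 572 bp. Chromosome X held 276 of them.

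RNA polymerase III transcribes tRNA genes from a promoter that lies inside the gene. Its A box and B box are bound by the factor TFIIIC, which brings TFIIIB to the DNA just upstream, and transcription ends in a run of T. In the nematode many tRNA genes sit inside introns of protein-coding genes, and many occur as identical copies scattered over the chromosomes. MEP-1 is known for work on protein-coding genes, where it keeps germline genes off in somatic cells.

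The deposited files are lists of regions, each with a summit and a signal value, the strength that the authors' peak caller assigned to it. The set that passed the irreproducible discovery rate procedure (the IDR set, 2404 peaks) equals the 2404 strongest regions of the pooled list, which holds 30000 candidates, background among them. A locus is called bound below when a summit of the IDR set lay in it. Replicate 1 has 25192 candidates on nuclear chromosomes and replicate 2 has 30000. Read depth is unknown, signals of separate lists are not on 1 scale, and with 1 condition no test was made. The intervals printed are exact Clopper-Pearson 95% intervals and cover counting error over loci only. Loci that share a peak or a sequence are not independent.

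The sequences that follow, read from the RefSeq WBcel235 (ce11) genome, show the promoter boxes of 8 of the 12 loci with the highest signal. Capitals mark matches to the B box GTTCNANNC and, within the first 20 bp, to the A box, which reads without gaps T, N, GC, NN, A, NNN, G. C06G1.t1 is a histidine tRNA gene at chrX:16634830-16634901 on the minus strand. F15G9.t1 and F15G9.t2 are alanine tRNA genes at chrX:9743589-9743660 and chrX:9743747-9743818 on the plus strand. R04D3.t2 carries valine at chrX:13307034-13307106, C04A11.t1 leucine at chrX:13665555-13665673, R04A9.t1 glutamine at chrX:410391-410462, F57F5.t1 isoleucine at chrV:12002176-12002260 and C02B4.t2 tyrosine at chrX:12665228-12665311, all on the plus strand. C06G1.t1, R04D3.t2 and R04A9.t1 have a B box match without an A box match, and the other 5 have both. At the place of the A box these genes have GT where the pattern requires GC and otherwise fit it. The lack of a match therefore does not show that the A box is missing.
C06G1.t1: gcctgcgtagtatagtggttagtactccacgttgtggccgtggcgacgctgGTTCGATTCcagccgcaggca
F15G9.t1: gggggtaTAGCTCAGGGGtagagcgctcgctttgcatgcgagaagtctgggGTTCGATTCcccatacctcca
F15G9.t2: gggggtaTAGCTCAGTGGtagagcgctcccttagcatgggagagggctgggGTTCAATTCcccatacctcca
R04D3.t2: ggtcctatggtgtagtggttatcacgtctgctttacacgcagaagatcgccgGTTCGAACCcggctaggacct
C04A11.t1: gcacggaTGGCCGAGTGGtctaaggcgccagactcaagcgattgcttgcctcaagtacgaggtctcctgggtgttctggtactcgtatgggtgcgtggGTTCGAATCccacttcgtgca
R04A9.t1: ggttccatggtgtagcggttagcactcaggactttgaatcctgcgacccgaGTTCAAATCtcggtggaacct
F57F5.t1: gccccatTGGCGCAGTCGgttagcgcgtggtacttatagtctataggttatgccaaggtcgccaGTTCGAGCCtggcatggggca
C02B4.t2: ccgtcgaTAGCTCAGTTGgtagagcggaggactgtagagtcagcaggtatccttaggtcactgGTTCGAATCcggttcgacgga

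Stretches around summits show where the peaks lay. In these the tRNA genes are in capitals. The 151 bp centred on the summit of C06G1.t1, chrX:16634808-16634958 on the minus strand, hold the whole gene with a run of T after it. Of the peaks shared by a pair of loci, the one with the highest signal had its summit in F15G9.t1, 57 bp inside that gene and 101 bp upstream of F15G9.t2. Both are on the same strand in an intron of him-4, a gene for an extracellular matrix protein. The stretch chrX:9743574-9743833, on the plus strand, holds both genes.
C06G1.t1 summit region: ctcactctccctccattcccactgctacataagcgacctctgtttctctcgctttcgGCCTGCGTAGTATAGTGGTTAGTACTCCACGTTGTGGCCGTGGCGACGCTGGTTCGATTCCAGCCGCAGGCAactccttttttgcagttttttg
F15G9.t1 and F15G9.t2: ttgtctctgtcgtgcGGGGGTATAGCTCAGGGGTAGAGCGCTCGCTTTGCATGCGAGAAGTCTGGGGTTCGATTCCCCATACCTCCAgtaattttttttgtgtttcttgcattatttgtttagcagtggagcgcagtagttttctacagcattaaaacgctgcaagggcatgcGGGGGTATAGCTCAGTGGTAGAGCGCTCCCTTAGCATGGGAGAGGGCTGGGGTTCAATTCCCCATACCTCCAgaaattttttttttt

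MEP-1 peaks were found at 107 of the 612 tRNA loci, 17.5% of them (14.6 to 20.7%), on 99 distinct peaks. Of consecutive genome windows of 572 bp, 1.36% held a summit of the IDR set, so the share at tRNA loci was 12.8 times that of the genome. The same window scored for all nuclear genes gave 6.33%. For protein-coding genes this window, which runs to the 3′ end of the gene, gave 11.2%. A stretch of the length of the genome windows at the 5′ ends of protein-coding genes gave 9.3%. Among other noncoding classes scored with the window used for tRNA genes, the share was 19.1% (15.1 to 23.6%) for 346 small nucleolar RNA genes, 10.1% (5.48 to 16.6%) for 129 small nuclear RNA genes and 8.81% (5.67 to 12.9%) for 261 microRNA genes. The interval of the small nucleolar RNA genes overlapped that of the tRNA genes. For pseudogenes the share was 0.846%, and for piRNA genes 0.384%. The 15363 piRNA genes are among all nuclear genes and lower the share of that group. A pair of loci shared 1 peak in 9 cases, 7 of them on X. The shared peaks of F15G9 and M02F4 are described below. The signal was 68.2 for F42A10.t1 and F42A10.t2, 60.4 for C53C7.t1 and C53C7.t2, 55.8 for F41D9.t1 and F41D9.t2 and 51.6 for F46G11.t1 and F46G11.t2. It was 37.4 for F22F1.t5 and F22F1.t6, 36.5 for W09G10.t2 and W09G10.t3 and 35.6 for C16B8.t2 and C16B8.t3. F22F1.t6, a methionine tRNA gene, held 2 summits.

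Most of these peaks were away from protein-coding promoters, taken as 1000 bp upstream to 200 bp downstream of an annotated 5′ end. Of the 99 peaks, 80 (80.8%) had their summit outside every such promoter, whereas 67.8% of the whole IDR set lay inside one. Most tRNA loci were themselves clear of promoters, with 438 of 612 windows touching none. The tRNA loci accounted for 4.12% of the IDR set and for 10.3% of its 775 peaks outside promoters. The 19 peaks that lay in promoters had a median signal of 49.0, and the other 80 had 48.8. Loci whose window touched a protein-coding promoter were bound in 17.8% of cases (31 of 174), and loci clear of promoters in 17.4% (76 of 438).

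Signal at tRNA loci was of middle strength within the IDR set. The 99 peaks ran from 34.5 to 112 with a median of 48.9 and quartiles of 41.4 and 64.6. The whole set had a median of 52.4 and a maximum of 357. When the 2404 peaks were divided by signal into 4 groups of 601, the tRNA peaks numbered 18, 25, 31 and 25 from the strongest group to the weakest. The highest of them ranked 154 in the set.

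Summits lay on the gene itself or immediately upstream of it. The median summit was 7 bp inside the gene, counted from its 5′ end, with quartiles at 24 bp upstream and 24.5 bp inside. There were 56 peaks with a summit in the gene body, 36 with one 1 to 50 bp upstream, 4 at 51 to 200 bp and 3 farther out, of which 2 lay in a protein-coding promoter. The gene bodies alone were hit at 9.15% of loci, against 0.173% of 72-bp genome windows, a ratio of 53. The stretch from 50 bp upstream to 60 bp inside, set after the positions had been seen, makes up 19.4% of the median locus and held 82 of the 99 summits (82.8%). Of these 82, 14 lay in a protein-coding promoter.

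The same position stood out in each list when all summits within 1000 bp of a tRNA 5′ end were assigned to their nearest tRNA gene. Of 116 IDR summits in this range, 98 (84.5%) lay between 50 bp upstream and 99 bp downstream of the 5′ end. In the pooled candidate list the number was 255 of 567 (45%), in replicate 1 it was 186 of 487 (38.2%), and in replicate 2 it was 224 of 557 (40.2%). Beyond 500 bp on either side the median was 8 pooled candidates, 6.5 replicate 1 candidates and 7.5 replicate 2 candidates per 50 bp. The tallest 50-bp bin held 97, 72 and 90 candidates in these lists.

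**Figure D1:**
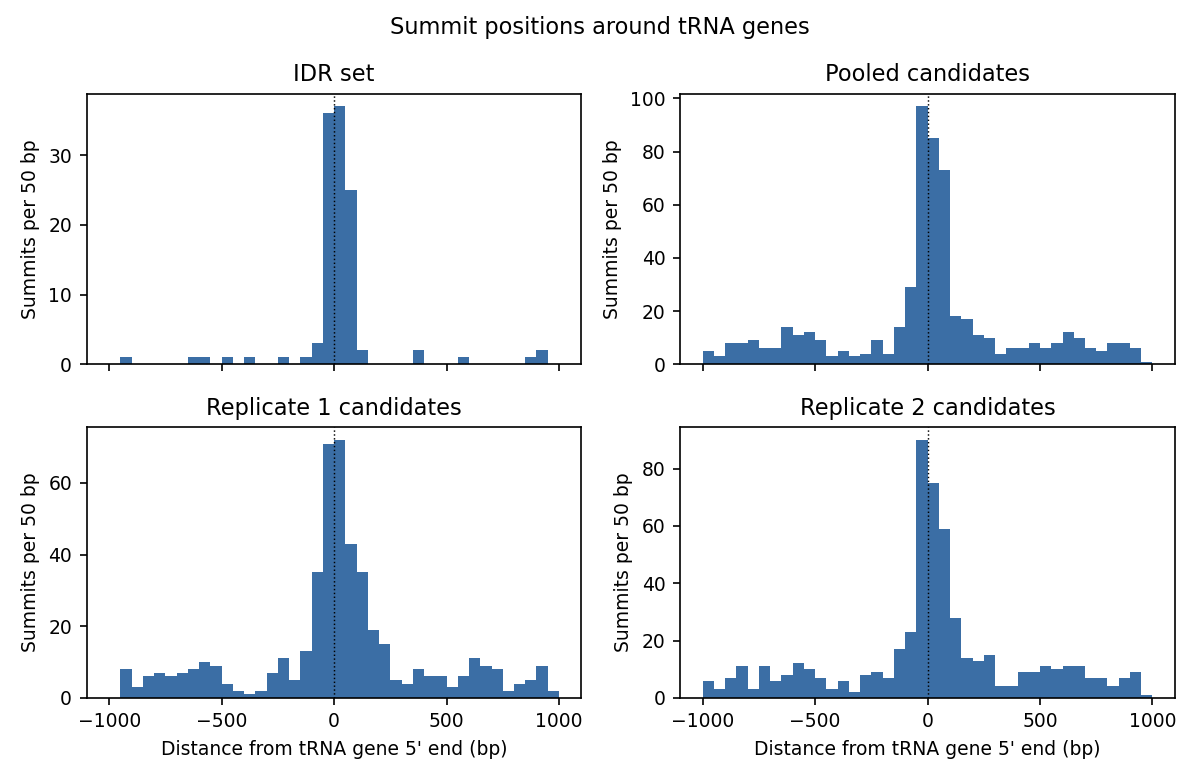
Number of summits per 50 bp (y axis) by distance in bp from the 5′ end of the nearest tRNA gene (x axis, positive into the gene), for the IDR set, the pooled candidates and the candidates of each replicate. All 4 lists rise at the 5′ end, and 98 of 116 IDR summits lie between 50 bp upstream and 99 bp downstream.

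The strongest tRNA loci were on X, with exceptions on autosomes lower in the order. The histidine gene C06G1.t1, in an intron of C06G1.1, had a pooled signal of 112 (rank 154 in the IDR set), a replicate 1 signal of 15.7 (rank 672 of that list) and a replicate 2 signal of 94.5 (rank 147). The isoleucine gene C42D8.t1 had a pooled signal of 110.0 (rank 163), with 26.7 in replicate 1 and 83.4 in replicate 2. The closest protein-coding start, 1169 bp from that of the tRNA gene, was that of ets-5, a gene for an ETS-family transcription factor. The peak region of 123 bp was narrower than the usual 336 bp, as were those of 221 IDR peaks but of no other tRNA peak. The peak shared by the alanine genes F15G9.t1 and F15G9.t2 had a pooled signal of 109 (rank 177) and a replicate 1 signal of 29.6 (rank 104). Replicate 2 had no candidate summit within 100 bp of it or anywhere in the windows of these genes, which makes it the single tRNA peak of 99 without a match in that replicate.

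Among the next loci by signal, some ranked far higher in replicate 1 than in replicate 2 and others ranked more alike. The valine gene R04D3.t2 had a pooled signal of 98.7, and its rank was 17 in replicate 1 (signal 43.9) but 762 in replicate 2 (53.8). The leucine gene C04A11.t1, whose sequence has no other copy in the genome annotation, had a pooled signal of 94.4, with 25.2 (rank 189) in replicate 1 and 68.0 (rank 403) in replicate 2. The glycine gene M02F4.t1 and the glutamate gene M02F4.t2 lie head to head and shared a peak of 92.9, with 36.9 (rank 41) in replicate 1 and 51.8 (rank 823) in replicate 2. Its summit was 22 bp upstream of the first gene and 95 bp upstream of the second. The glutamine gene R04A9.t1, in an intron of ZK1193.2, had 90.5 pooled, 18.2 (rank 466) in replicate 1 and 72.8 (rank 325) in replicate 2, with its summit 62 bp upstream. The protein-coding genes with the nearest 5′ ends to the tRNA starts of the non-intronic loci were srd-43 at 1190 bp for R04D3.t2, C04A11.5 at 972 bp for C04A11.t1 and M02F4.2 at 1861 and 1744 bp for M02F4.t1 and M02F4.t2.

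The remaining loci among the 12 with the highest signal included the autosomal ones. The cysteine gene C37A2.t1 lies in an intron of cye-1, the cyclin E gene, and had 83.7 pooled, 40.5 in replicate 1 (rank 21) and 45.2 in replicate 2 (rank 1061). The isoleucine gene F57F5.t1 on chromosome V had 83.6 pooled, 23.9 in replicate 1 and 60.2 in replicate 2. Its summit, 41 bp upstream of the tRNA gene, also lay in the promoters of gcy-33, a guanylate cyclase gene, and of cpr-9, a cysteine protease gene. The tyrosine gene C02B4.t2, in an intron of the nuclear receptor gene nhr-17, had 83.5 pooled, 35.2 in replicate 1 (rank 47) and 49.5 in replicate 2 (rank 892).

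The threshold of the IDR set cut through a continuous range of tRNA signals. The lowest value in the IDR set was 34.2. Just inside it were the serine gene C29F7.t2 at 35.0, the methionine gene C14B9.t1 at 34.7 and the leucine gene C43G2.t1 at 34.5. Just outside it were the arginine gene M57.t1 at 33.3, the phenylalanine gene Y39B6A.t9 at 33.2 and the glycine gene T22A3.t1 at 33.0. In these last 3 the candidate summit lay 1, 6 and 3 bp upstream of the gene. M57.t1 had a replicate 1 signal of 7.80 and a replicate 2 signal of 23.2, and Y39B6A.t9 had 12.2 and 23.3. T22A3.t1 had no match in replicate 1 and a signal of 25.9 in replicate 2.

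**Figure D2:**
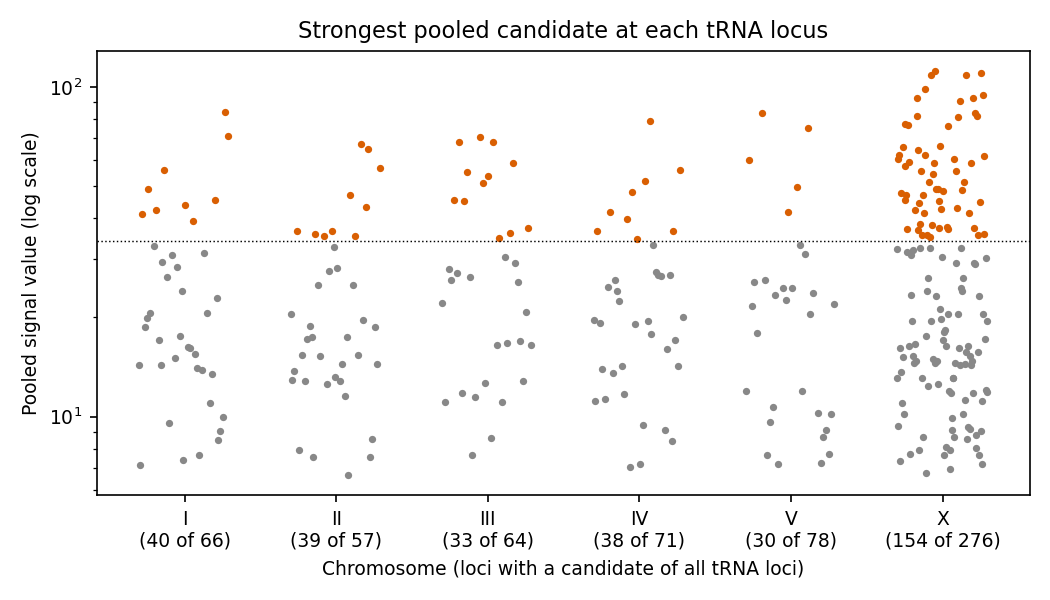
Signal value of the strongest pooled candidate at each of the 334 tRNA loci that hold one (y axis, log scale), by chromosome (x axis, with the number of loci holding a candidate of all tRNA loci); orange points are in the IDR set and grey points are not. Values run without a gap through the lowest IDR signal of 34.2 (dotted line), and the highest points, up to 112, are on X.

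Candidates of the full lists, IDR regions among them, were also gathered at tRNA loci. The pooled list placed a summit at 334 of 612 loci (54.6%), the 107 bound loci included. Of windows of the same length 16.2% held one, those with an IDR summit included, a ratio of 3.37. Replicate 1 alone did so at 265 loci (43.3%, against 13.5% of windows) and replicate 2 alone at 306 (50%, against 16.2% of windows). Both replicates had a candidate at 187 loci (30.6%), and no list had one at 212 loci. The median signal of the strongest pooled candidate per locus, IDR peaks included, was 21.8. At the 227 loci with a pooled candidate but no IDR peak, it was 15.4. The median over all single pooled candidates was 10.3, which is not a maximum per locus, so the measures differ. Of the 221 distinct pooled candidates at tRNA loci outside the IDR set, 123 (55.7%) had their summit between 50 bp upstream and 60 bp inside the gene.

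The replicates ranked the tRNA peaks differently from the rest of the IDR set. A candidate summit within 100 bp was found for 88 of the 99 peaks in replicate 1 (88.9%, against 84.5% of the IDR set) and for 98 in replicate 2 (99%, against 98.5%). Every tRNA peak had a match in at least 1 replicate, and 87 had one in both. Among the 2404 strongest candidates of replicate 1 were 79 of the 99 (79.8%), where 58.4% of the IDR set were. In replicate 2, 75 (75.8%) were among its 2404 strongest, where 90% of the IDR set were. The median rank of matched tRNA peaks was 757.5 in replicate 1, ahead of the 1269 of all matched IDR peaks, and 1577.5 in replicate 2, behind their 1192. Among the 2404 strongest of both replicates were 57 tRNA peaks. Of the rest, 22 were among them in replicate 1 only, 18 in replicate 2 only and 2 in neither. A control alignment is named for the replicate 1 and pooled lists but not for the list of replicate 2, and the part of this in the ranks was not tested.

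**Figure D3:**
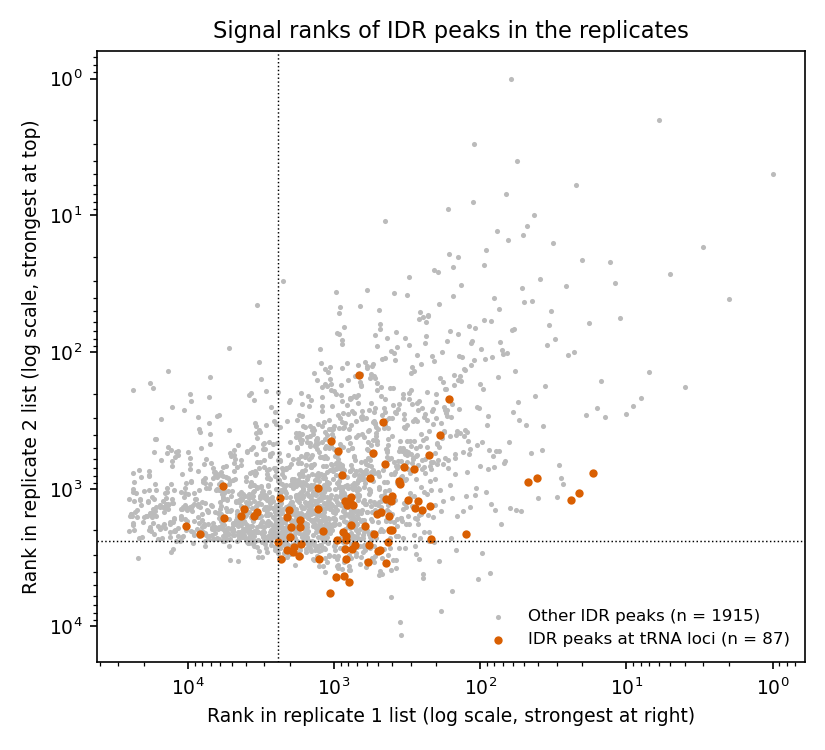
Signal rank of IDR peaks with a summit match in both replicates, in the list of replicate 1 (x axis, log scale, strongest at right) and of replicate 2 (y axis, log scale, strongest at top); dotted lines mark rank 2404. The 87 tRNA peaks (orange) have a median rank of 762 in replicate 1 and 1573 in replicate 2, and the 1915 other peaks (grey) have 1313 and 1129, with wide overlap.

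Intronic tRNA genes carried peaks too. Of 283 tRNA genes lying inside introns of protein-coding genes, 42 were bound (14.8%, 10.9 to 19.5%), against 0.794% of windows inside introns, a ratio of 18.7. Of the other 329 genes, 65 were bound (19.8%, 15.6 to 24.5%), against 1.45% of windows not inside introns, a ratio of 13.7. The intervals of both shares overlapped. The ratios set somewhat unlike regions side by side. A gene was classed by its own position, so its locus can reach upstream beyond the intron. Windows counted as intronic only where they lay wholly inside introns. Genes on the strand of their host were bound in 22 of 160 cases (13.8%) and genes on the opposite strand in 20 of 122 (16.4%). The 5 intronic loci with the highest signal were C06G1.t1, the F15G9 pair, R04A9.t1 and C37A2.t1, described above.

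The share bound was higher at X-linked than at autosomal tRNA loci. On X, 62 of 276 loci were bound (22.5%, 17.7 to 27.9%), against 1.38% of windows on X. On the autosomes 45 of 336 were bound (13.4%, 9.94 to 17.5%), against 1.36% of autosomal windows. The intervals are separate by a narrow margin. With each summit counted for its nearest tRNA gene only, the shares were 20.3% (15.7 to 25.5%) and 12.8% (9.42 to 16.8%), whose intervals overlap. No test of the difference was made. By chromosome the share was 13.6% on I, 17.5% on II, 18.8% on III, 12.7% on IV and 6.41% on V, where 5 of 78 loci were bound. Chromosome V was lowest (2.11 to 14.3%), and its interval overlapped those of the other autosomes. The interval of X overlapped those of I, II, III and IV but not that of V. For intronic genes the share was 18.9% on X (11.6 to 28.3%) and 12.8% on the autosomes (8.35 to 18.4%). For the others it was 24.3% (18.3 to 31.2%) and 14.2% (9 to 20.9%). The intervals overlap in both cases. When only the 2404 strongest regions of replicate 2 were used, the shares were 15.9% on X and 11.3% on the autosomes. In replicate 1 they were 24.6% and 16.4%. The intervals of X and the autosomes overlap in each replicate. The share of loci with any pooled candidate was alike, at 55.8% on X and 53.6% on the autosomes. The median signal of bound loci was 53.1 on X and 46.9 on the autosomes.

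**Figure D4:**
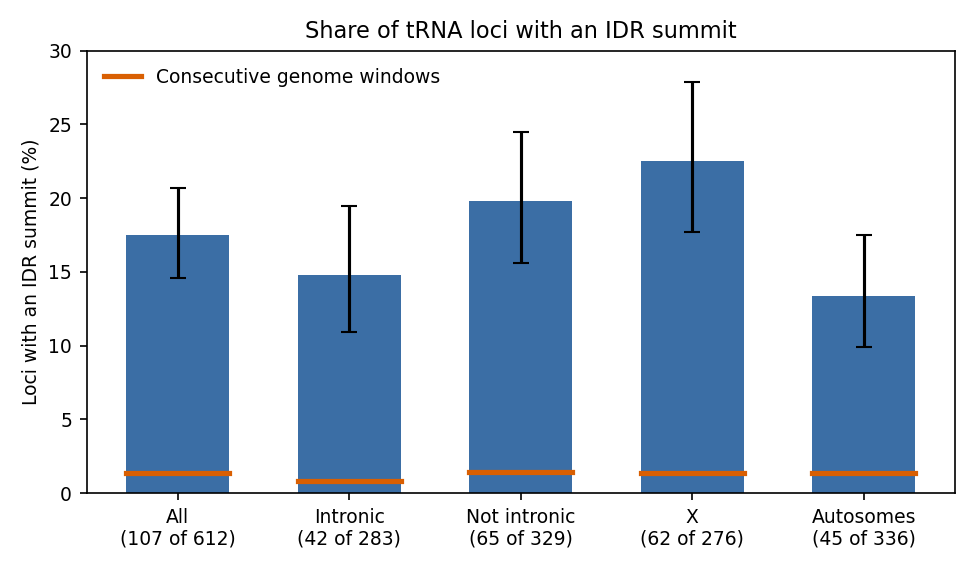
Share of tRNA loci with a summit of the IDR set in percent (y axis), for all loci and by intron and chromosome class (x axis, with bound loci of all loci). Error bars are exact Clopper-Pearson 95% intervals. Orange lines are the share of genome windows of 572 bp in the matching class. Loci were classed as intronic by the gene alone, and windows only where they lay wholly inside introns. Every bar stands far above its line, from 13.4% on autosomes to 22.5% on X against 0.794 to 1.45% of windows.

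Crowding of tRNA genes did not go with more peaks. Loci with another tRNA gene within 1000 bp were bound in 30 of 230 cases (13%, 8.98 to 18.1%), and loci farther apart in 77 of 382 (20.2%, 16.2 to 24.5%).

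Peaks were spread over the whole set of amino acids. The annotation used here gives the amino acid for 607 of the 612 genes, and splits by amino acid stand in for splits by anticodon. All 20 amino acids with at least 10 loci had a bound locus. The share was highest for methionine at 6 of 20 loci (30%, 11.9 to 54.3%), then alanine at 9 of 34 (26.5%, 12.9 to 44.4%) and tryptophan at 3 of 12 (25%, 5.49 to 57.2%). It was lowest for glycine at 3 of 55 (5.45%, 1.14 to 15.1%), glutamine at 2 of 27 (7.41%, 0.91 to 24.3%) and valine at 3 of 31 (9.68%, 2.04 to 25.8%). The interval of glycine met those of methionine, alanine and tryptophan. These are the extremes of 20 amino acids and no test was made, so no order among them is read here. The share with a pooled candidate was 50.9% for glycine and 55% for methionine.

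The single gene for the selenocysteine tRNA, K11H12.t1, was bound. This tRNA reads a UGA codon as selenocysteine, and its gene at chrIV:658181-658266, on the plus strand in an intron of K11H12.8, is longer than most at 86 bp. Its pooled signal was 36.6 and its replicate 2 signal 31.2, with no match in replicate 1. Its sequence, with the B box match in capitals and no A box match, shows this greater length. None of the 5 genes without an amino acid was bound.
K11H12.t1: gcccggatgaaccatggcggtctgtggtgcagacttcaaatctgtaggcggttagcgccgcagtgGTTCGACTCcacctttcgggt

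Identical genes were bound unequally. The 612 genes had 200 distinct sequences, and 143 genes had a sequence of their own. Of these 143, 19 were bound (13.3%, 8.19 to 20%). The share was 23.7% (36 of 152, 17.2 to 31.3%) for genes with 2 to 9 copies and 16.4% (52 of 317, 12.5 to 20.9%) for those with at least 10. The share with a pooled candidate was 38.5% for single genes, 60.5% for 2 to 9 copies and 59% for at least 10. All 20 families of at least 10 identical genes had a bound member, and none had all of its members bound. The sources used here do not say how reads that map to several copies were treated, and the part of this in these shares was not tested.

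The largest family, 29 glycine genes, had 2 bound members, M02F4.t1 and K09C8.t1, and 18 with a pooled candidate. In the family of 12 cysteine genes that holds C37A2.t1, 3 were bound and 11 had a pooled candidate. In the family of 11 histidine genes that holds C06G1.t1, 2 were bound and 3 had a pooled candidate. The family of 10 tryptophan genes includes the genes in which amber suppressor mutations of the nematode were found, and its members are named here after their values had been seen. Bound were sup-5, in an intron of fli-1, with a pooled signal of 58.7, 11.2 in replicate 1 and 47.2 in replicate 2; sup-7, in an intron of C03B1.2, with 37.2, 14.2 and 22.4; and sup-24 with 36.6, 12.4 and 15.2. The other 7 copies, among them sup-21, sup-28, sup-29 and sup-33, were not bound. The copies thus shared their sequence but not their calls.

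**Figure D5:**
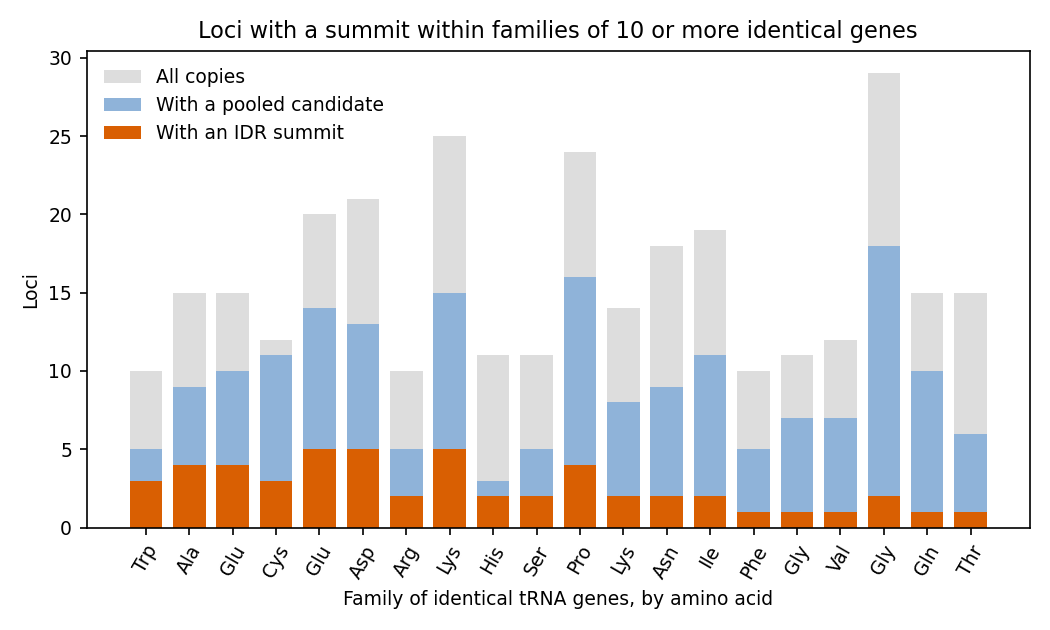
Number of loci (y axis) in each of the 20 families of at least 10 identical tRNA genes (x axis, named by amino acid), with those holding a pooled candidate in blue and those in the IDR set in orange, drawn over all copies in grey and ordered by the share bound. Each family has 1 to 5 bound members, and the family of 29 glycine genes has 2.

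The B box and the run of T were about as frequent in bound genes as in the others. A match to the A box pattern was somewhat more frequent in bound genes, with overlapping intervals. The B box GTTCNANNC was on the gene strand of 587 of 612 genes (95.9%), and 22 had it on the opposite strand. Of 72-bp genome windows, 2.44% held it on either strand and 1.23% on a given strand. It was present in 102 of 107 bound genes (95.3%) and in 485 of 505 others (96%). The A box pattern within the first 20 bp matched 335 genes (54.7%), and 7.07% of 72-bp windows held it at any position on either strand. The pattern requires GC, and genes with GT there, such as C06G1.t1, count as having no match. The shares thus describe this pattern and not the presence of an A box. A match was present in 67 bound genes (62.6%) and in 268 others (53.1%). Loci with and without a match were bound in 20% (15.8 to 24.7%) and 14.4% (10.5 to 19.1%) of cases, with overlapping intervals. A run of TTTT on the gene strand within 40 bp downstream followed 605 genes (98.9%), where 68.2% of 40-bp windows held one on either strand and 44.4% on a given strand. It was present at 106 bound genes (99.1%) and at 499 others (98.8%).

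The genes for 5S ribosomal RNA are also transcribed by RNA polymerase III. None of their 16 annotated copies had a summit of the IDR set in its window, which allows a share of up to 20.6%. This cannot be told from the share of genome windows, nor from the 17.5% of tRNA loci. How reads that map to several copies were treated is unknown here too, and the 16 copies may not be independent. The pooled list placed a candidate at 1 of them (6.25%, 0.158 to 30.2%), replicate 1 at 1 and replicate 2 at none.

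Promoters of genes for RNA polymerase III transcription and for tRNA maturation were bound in 12 of 34 cases (35.3%, 19.7 to 53.5%), against 11.4% of all protein-coding promoters. The highest signals were 77.3 at xpo-3, the tRNA export receptor, and 75.2 at rpac-19, a subunit shared by RNA polymerases I and III. The genes snpc-1.1, snpc-1.2 and snpc-4, for subunits of the small nuclear RNA activating complex, had 57.2, 55.2 and 40.5. They are 3 of the 6 genes of this complex in the list. The complex is named for small nuclear RNA genes, and a part of it at tRNA genes was not examined here. The shared polymerase subunits rpb-8, rpb-10 and rpb-12 had 55.0, 36.3 and 35.3. The TFIIIC gene tftc-1 had 42.5, and mafr-1, the worm Maf1 repressor of RNA polymerase III, had 40.7. The Elongator gene elpc-4 and the pseudouridine synthase gene pus-1 had 39.6 and 38.1. In xpo-3, rpb-10 and elpc-4 another protein-coding gene had the 5′ end nearest to the summit. The other 22, among them the polymerase subunits rpc-1 and rpc-2, the TFIIIB genes brf-1 and tbp-1 and the TFIIIC genes tftc-3 and tftc-5, had no summit in their promoter.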

How the data were processed

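Candidate lists of both replicates, the pooled candidate list and the IDR set on ce11 were used; per the labels, the library size range was 150 to 350 bp. The deposited signal values and −log10 q-values were assigned by the authors' peak caller, whose name is not stated in the sources used here, nor are the aligner and the IDR threshold. The −log10 q-value is at its ceiling throughout the IDR set, so peaks were ranked by signal. Deposited summits were scored in windows drawn from Ensembl release 115 genes of WBcel235; names and amino acids came from RefSeq by WormBase identifier, which matched all 612 genes. Mitochondrial tRNA genes (22) were not used. Intronic genes lay wholly inside an intron of a protein-coding gene and touched no exon of one. Backgrounds were consecutive, non-overlapping windows over the nuclear chromosomes. Replicate summits matched within 100 bp.

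The loci named are the 12 with the highest IDR signal, the 5 highest intronic ones, the 3 strongest pooled candidates outside the IDR set, the peaks shared by the most tRNA genes (2), and the 3 highest and lowest amino acids with at least 10 loci; the 3 weakest bound loci, the selenocysteine gene and the suppressor genes were added after values were seen. Members and lists were chosen with earlier results of these data known. The alternatives used other windows, the stronger 1202 IDR peaks, each replicate alone, summits outside promoters, overlap of at least 1 bp and, added after seeing the data, loci without identical copies and nearest genes only. The scoring of summits at loci was checked with summits planted at tRNA loci and away from them. This check covered no other step. Tools were Python 3.11.15, numpy 2.4.6, SciPy 1.17.1 and matplotlib 3.10.9.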

Additional observations from a re-analysis of the deposited data

How the results depend on the processing

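Of 72 alternative values, 50 were close to the value reported: counts within 1.5 times, shares within the interval and medians within the spread over peaks. Scoring the gene body alone gave 56 loci on 56 peaks, shares of 9.19% intronic, 9.12% non-intronic, 10.5% X-linked and 8.04% autosomal, and 133 loci with a pooled candidate. The 1202 strongest IDR peaks gave 48 loci on 43 peaks and shares of 6.71, 8.81, 11.2 and 5.06% in the same order. Leaving out summits in promoters gave 14% of non-intronic and 9.23% of autosomal loci. With loci that have an identical copy left out, 19 loci on 18 peaks remained of the 143 single genes, with 10.6% of intronic, 15.6% of non-intronic and 17.5% of X-linked loci bound, and 10.5% of autosomal ones. With 1 replicate left out and the 2404 strongest regions of the other used, bound loci ranged from 82 to 123, peaks from 76 to 110, intronic shares from 10.6 to 16.6%, non-intronic from 15.8 to 23.1%, X-linked from 15.9 to 24.6% and autosomal from 11.3 to 16.4%; loci with a candidate ranged from 265 to 306. X-linked shares were above autosomal ones in each alternative run. The median signal of tRNA peaks was between 43.7 and 67.0 in every alternative; it was not computed for the replicate lists, whose signals are on other scales. The promoter list kept 11 of 12 genes in a narrower promoter. The alternatives change which summits or loci are counted, and no other cause was tested. No paired analysis was possible because the study has 1 group. Read depth is unknown, so a locus without a candidate may lie below what these lists can show.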
